A study of Homo sapiens with 6 samples.

Results

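Transcripts of 10 genes of iron handling were examined in ES-2 cells, an established line from a human ovarian clear cell carcinoma, after transfection with a mir-22 mimic: the metalloreductase family genes STEAP1, STEAP2 and STEAP3, and TFRC, FTH1, FTL, SLC11A2, SLC40A1, HMOX1 and IREB2. The genes were picked on results of the same comparison of log2 intensities between mir-22 mimic and control mimic arrays, and then listed by symbol, and all probes carrying those symbols were taken. Of the 10, 8 had a probe named here, 17 probes in all, among 18852 named genes and 48803 probes on the array. FTH1 and IREB2 had none and were not analysed here. A total of 11 of the 17 probes, for 7 genes, passed the detection filter (detection p under 0.01 on at least 3 of the 6 arrays), and the other 6 were not above background on any array.

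The mir-22 mimic group comprised 3 arrays of cells that received the mimic at 65 nM, and the control mimic group 3 arrays of cells that received a negative control modelled on nematode microRNAs, for which no dose is stated. All cells were of a single line and were harvested at 48 hours. The labels name the samples of a group as biological replicates but do not state whether cultures were separate, and p-values therefore reflect only the spread among these arrays, which may be technical. The study asked how gene expression responds when mir-22, low in ovarian cancer, is raised.

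Cells take up most iron bound to transferrin, through the transferrin receptor encoded by TFRC. In the endosome the ferric iron is reduced by a STEAP metalloreductase and carried into the cytosol by the divalent metal transporter encoded by SLC11A2. Spare iron is stored in ferritin, built of heavy chains (FTH1) and light chains (FTL), or leaves the cell through ferroportin (SLC40A1), while heme oxygenase (HMOX1) frees iron from heme. Iron regulatory proteins, among them the product of IREB2, bind the messenger RNAs of TFRC and ferritin when iron is scarce, which stabilises the first and blocks translation of the second, so ferritin protein can change without its transcript.

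The microRNA whose mimic was added is shown because its seed, the stretch that pairs with target messenger RNAs, sets which transcripts it can bind directly. The labels do not say which arm the mimic delivers. Both mature arms of MIR22 are given from RefSeq (GRCh38.p14, minus strand), with the seed, bases 2 to 8, in capitals. The 3p arm lies at chr17:1713914-1713935 and the 5p arm at chr17:1713952-1713973.
hsa-miR-22-3p: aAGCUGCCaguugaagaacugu
hsa-miR-22-5p: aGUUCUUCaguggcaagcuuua
Among 2545 mature human microRNAs in the table, each of these seeds occurred in 1 entry only, its own. A transcript with a full seed match to the 3p arm would hold GGCAGCU, and to the 5p arm GAAGAAC. Transcript sequences of the genes below were not used here, so whether they hold such matches was not tested.

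STEAP2 was lower with the mir-22 mimic at both of its detected probes, STEAP3 had higher values with the mimic at its brightest probe, and STEAP1 showed almost the same level in both groups. Of the 7 genes that passed the detection filter, taken at their brightest probe, 1 passed the threshold of the fit over all probes (limma, Benjamini-Hochberg adjusted p under 0.05), namely STEAP2, which was lower. Over all 11133 genes so measured 4.14% were called lower and 7.61% were called in either direction. The genes were chosen with this comparison known, so nothing is read from that count, and their fold changes are given as a description. The 2 groups were free of overlap in 5 of the 7, against 34.2% of all genes; 2 of the 5 were higher and 3 lower with the mimic. The median log2 fold change was -0.15 over the 7 genes and -0.02 over all genes.

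**Figure D1:**
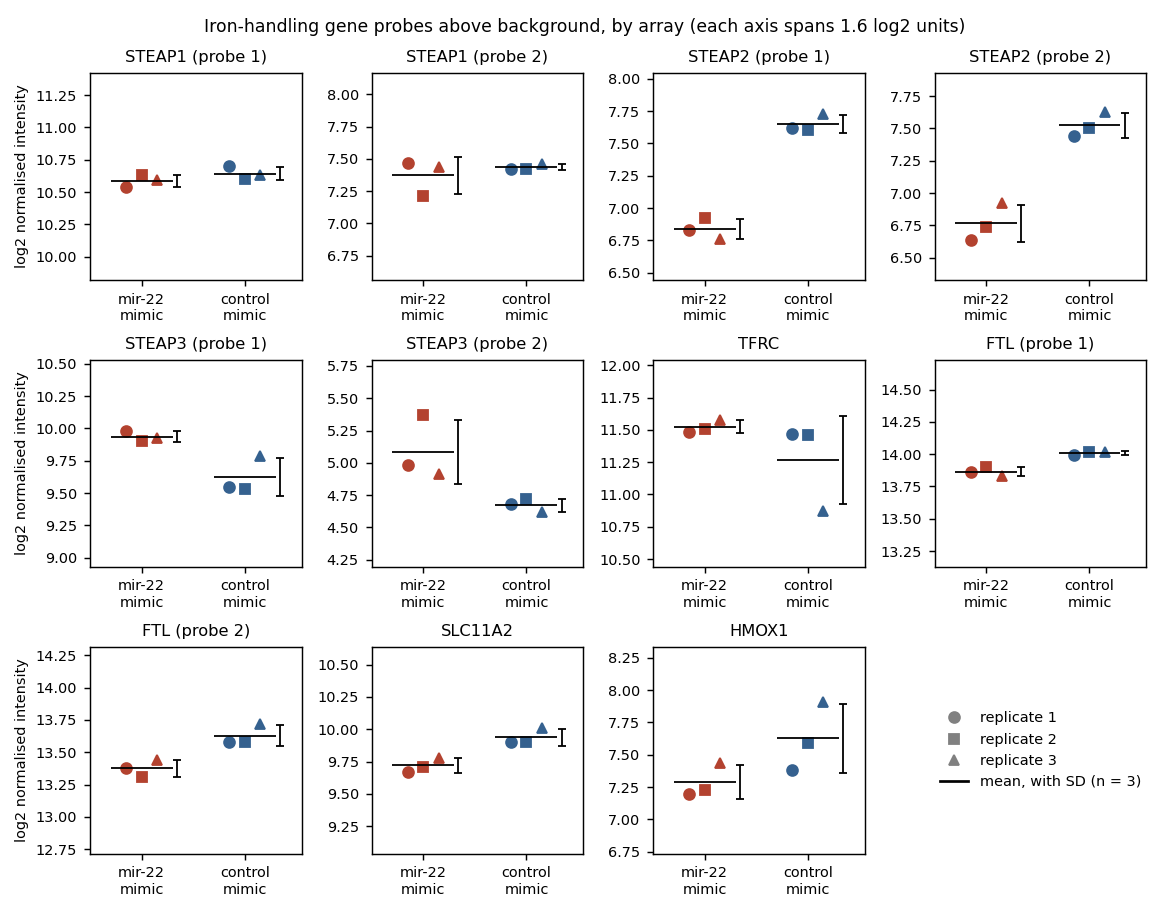
Log2 normalised intensity of the 11 detected probes of the 7 genes on each array, with the 3 mir-22 mimic arrays (red) left of the 3 control mimic arrays (blue); lines are means, bars are SD (n = 3), and each vertical axis spans the same number of log2 units. Both STEAP2 probes show the mimic arrays between 6.64 and 6.92 and the control arrays between 7.44 and 7.73, and TFRC shows a single control array at 10.87 below all others.

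STEAP2 encodes a metalloreductase that reduces iron and copper with electrons from NADPH. At its brightest probe the log2 normalised intensity was 6.83, 6.92 and 6.76 on mir-22 mimic replicates 1, 2 and 3, against 7.62, 7.60 and 7.73 on control mimic replicates 1, 2 and 3. Every mimic array lay below every control array, and the gap between the groups was wider than the whole range within either. The means were 6.84 ± 0.08 with the mir-22 mimic and 7.65 ± 0.07 with the control mimic (SD, n = 3 each), a log2 fold change of -0.81 ± 0.10 (moderated SE), so that the mimic level was 0.569 of the control level. The unprocessed intensities already differed, averaging 147.5 with the mir-22 mimic and 214.3 with the control mimic.

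A second STEAP2 probe, annotated to the same transcript record, gave 6.64, 6.74 and 6.92 on mir-22 mimic replicates 1, 2 and 3, against 7.44, 7.50 and 7.63 on control mimic replicates 1, 2 and 3. Its groups were also apart, with a log2 fold change of -0.76 ± 0.11, and it too was called. These were the only called probes among the 11 detected ones, where 6.46% of all kept probes were called. The third STEAP2 probe was not above background on any array, with raw intensities of 37.9 to 42.0 with the mir-22 mimic and 38.8 to 43.1 with the control mimic, and gives no fold change. The brightest probe of STEAP2 kept its call in all 16 alternative ways of processing, with log2 fold changes between -0.85 and -0.65. Among them were the 6 in which 1 array was left out (-0.85 to -0.77). All 16 used the arrays on which the gene was picked, so they describe the processing and add no separate support.

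STEAP3 encodes the ferrireductase that acts on transferrin iron in the endosomes of developing red cells, and is expressed more widely. Its brightest probe stood at 9.98, 9.90 and 9.93 on mir-22 mimic replicates 1, 2 and 3, against 9.55, 9.53 and 9.79 on control mimic replicates 1, 2 and 3. The mimic arrays were all higher, with control mimic replicate 3 nearest to them. The means were 9.94 ± 0.04 with the mir-22 mimic and 9.62 ± 0.15 with the control mimic (SD, n = 3 each), a log2 fold change of 0.31 ± 0.11, which was not called. Without control mimic replicate 3 the value was 0.40 and was called, and with arrays weighted by quality it was 0.39 and was called.

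Another STEAP3 probe, annotated to a different transcript record of the gene, was above background on all 3 mir-22 mimic arrays and on no control mimic array. It therefore passed the detection filter through the mimic arrays alone, and its direction adds nothing to that of the brightest probe. It read 4.98, 5.37 and 4.91 on mir-22 mimic replicates 1, 2 and 3, against 4.68, 4.72 and 4.62 on control mimic replicates 1, 2 and 3, near the floor of the scale, where differences are compressed. Set against the lowest detected signal of each control array, its mean level with the mimic was 1.27-fold higher. That value takes no account of the spread among arrays, and the probe was not called. The last STEAP3 probe was not above background on any array.

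STEAP1, the family member that lacks the NADPH-binding domain of the others, is known as a surface antigen of prostate and other tumours. Its brightest probe was at 10.54, 10.63 and 10.59 on mir-22 mimic replicates 1, 2 and 3, against 10.70, 10.60 and 10.63 on control mimic replicates 1, 2 and 3. The groups overlapped, and the log2 fold change was -0.06 ± 0.09. The next probe of STEAP1 also gave -0.06 ± 0.10 with overlapping groups, at means of 7.37 ± 0.14 with the mir-22 mimic and 7.43 ± 0.03 with the control mimic (SD, n = 3 each). The remaining 2 probes of STEAP1 were not above background on any array. The difference in response between STEAP1 and STEAP2 was not tested, since both were chosen with their values known. STEAP4, the remaining family member, had 1 probe, which was not above background on any array.

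**Figure D2:**
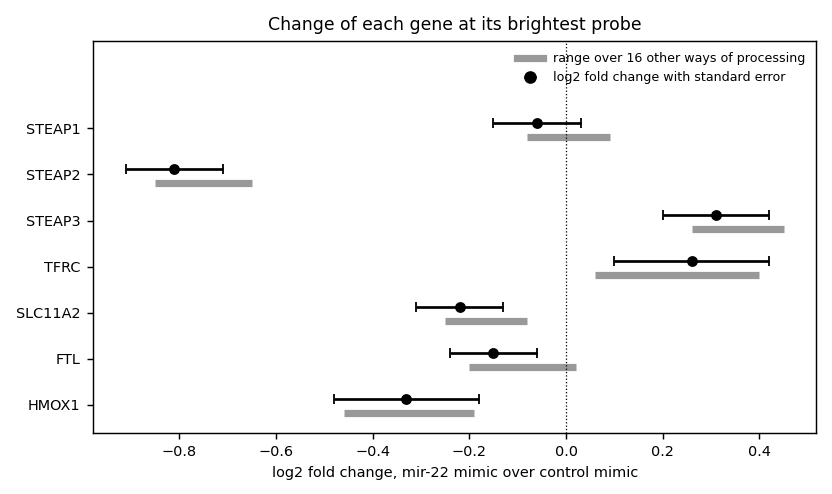
Log2 fold change, mir-22 mimic over control mimic, at the brightest probe of each of the 7 detected genes (points, bars are moderated SE), above the range of the same value over 16 other ways of processing (grey). STEAP2 lies at -0.81 with a range of -0.85 to -0.65, apart from the other 6 genes, and the ranges of STEAP1 and FTL cross 0.

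TFRC, the transferrin receptor, had log2 intensities of 11.48, 11.51 and 11.58 on mir-22 mimic replicates 1, 2 and 3, against 11.47, 11.46 and 10.87 on control mimic replicates 1, 2 and 3. Control mimic replicate 3 was low, while the other controls lay just under the mimic arrays. The means were 11.52 ± 0.05 with the mir-22 mimic and 11.27 ± 0.34 with the control mimic (SD, n = 3 each), a log2 fold change of 0.26 ± 0.16 that was not called. Without control mimic replicate 3 it was 0.06. The standard error over beads of this probe was 11.9% of its intensity on that array, against 3.35% to 5.20% on the 5 others.

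SLC11A2, the transporter that carries ferrous iron out of the endosome, was at 9.67, 9.71 and 9.78 on mir-22 mimic replicates 1, 2 and 3, against 9.90, 9.90 and 10.01 on control mimic replicates 1, 2 and 3. All mimic arrays were below all control arrays, by a small margin. The log2 fold change was -0.22 ± 0.09 and was not called. It was -0.08 when arrays were scaled to a common median in place of quantile normalisation. That scaling raised the median log2 fold change of all genes by 0.11, to 0.10, and relative to that median SLC11A2 stood at -0.18, against -0.20 before. Unprocessed intensities averaged 915.6 with the mir-22 mimic and 950.4 with the control mimic.

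FTL, the ferritin light chain, read 13.86, 13.90 and 13.83 on mir-22 mimic replicates 1, 2 and 3, against 13.99, 14.02 and 14.02 on control mimic replicates 1, 2 and 3 at its brightest probe. The groups were apart but close, with a log2 fold change of -0.15 ± 0.09. The other probe of FTL gave 13.38 ± 0.07 with the mir-22 mimic and 13.62 ± 0.08 with the control mimic (SD, n = 3 each), a log2 fold change of -0.25 ± 0.10. Neither was called, and the direction at the brightest probe rested on the scaling: with median scaling the value was 0.02, or -0.08 relative to the median of all genes. Unprocessed intensities of that probe averaged 15770 with the mir-22 mimic and 15340 with the control mimic, the opposite order. Those of the other probe averaged 11330 and 11820, in the order of its normalised values. Unprocessed values are not scaled between arrays. The upper quartile of all probes was 80.0 to 96.2 on the mimic arrays and 78.1 to 85.6 on the control arrays. Ferritin genes have many near-identical pseudogene copies, so the transcripts behind a ferritin probe are uncertain.

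FTH1P3, a ferritin heavy chain pseudogene picked after its values were seen, had a detected probe. It stood at 7.59, 7.34 and 6.84 on mir-22 mimic replicates 1, 2 and 3, against 7.64, 7.48 and 6.26 on control mimic replicates 1, 2 and 3. Both number 3 arrays were low, and the log2 fold change of 0.13 ± 0.35 was within the spread. Without control mimic replicate 3 the difference of the means turned to -0.30. How much of its signal came from FTH1 was not tested.

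HMOX1, which opens the heme ring and releases its iron, was at 7.20, 7.23 and 7.44 on mir-22 mimic replicates 1, 2 and 3, against 7.38, 7.59 and 7.91 on control mimic replicates 1, 2 and 3. The groups overlapped, as mimic replicate 3 lay above control mimic replicate 1. The means were 7.29 ± 0.13 with the mir-22 mimic and 7.63 ± 0.27 with the control mimic (SD, n = 3 each), a log2 fold change of -0.33 ± 0.15 that was not called. Without control mimic replicate 3 it was -0.19, and with arrays weighted by quality it was -0.29 and was called. SLC40A1, the iron exporter ferroportin, was not above background on any array at either of its probes, whose raw intensities ran from 38.7 to 49.0 with the mir-22 mimic and from 37.5 to 47.9 with the control mimic.

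The genes whose brightest probes tracked that of STEAP2 most closely over the 6 arrays were MAPKAPK5 (Pearson r = 0.9993), CLCC1 (0.9987), SMCO4 (0.9982), DYNC2I2 (0.9976) and PPP4R4 (0.9964). Their log2 fold changes were -0.24, -1.13, -0.74, -0.65 and -0.31. All 6 arrays share the contrast by which STEAP2 was picked, and 362 of 11126 genes had an r above 0.95, so the ranking is a description of these arrays only.

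Other genes of iron, heme and copper handling were then counted in 9 lists of 116 genes, of which 105 were on the array and 87 passed the detection filter. Only 3 of the 87 passed the threshold, all higher with the mir-22 mimic. That is 3.45%, against 7.61% of all genes in either direction and 3.47% higher; 20 had an unadjusted p under 0.05, which is 23.0%, against 25.6% of all genes. The fit with the replicate number as a block called 5, the same 3 genes with the porphyrin transporter gene ABCB6 and the iron-sulfur assembly gene IBA57. IBA57 was near the floor of the scale, at 5.02 to 5.30 with the mir-22 mimic and 4.56 to 4.82 with the control mimic. On how many control arrays it was above background is not given here. The 2 groups were free of overlap in 33.3% of the 87, near the 34.2% of all genes. The median log2 fold change was -0.03 over the 87, and 39 were above 0 and 48 below.

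The called genes were NQO1, ISCA1 and EPAS1. NQO1, a quinone reductase under the control of the oxidative stress factor NRF2, was at 10.98, 11.07 and 11.24 on mir-22 mimic replicates 1, 2 and 3, against 10.35, 10.43 and 10.64 on control mimic replicates 1, 2 and 3. It rose by a log2 of 0.62 ± 0.12 (limma adjusted p = 0.0233), and its other probe gave 0.45 ± 0.17 and was not called. ISCA1, a factor of mitochondrial iron-sulfur cluster assembly, was at 7.47, 7.66 and 7.66 on mir-22 mimic replicates 1, 2 and 3, against 6.84, 6.63 and 7.07 on control mimic replicates 1, 2 and 3. It rose by 0.75 ± 0.13 (limma adjusted p = 0.018), and its other probe gave 1.18 ± 0.38 and was not called.

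EPAS1 encodes the hypoxia-inducible factor HIF-2 alpha, whose messenger RNA carries an element bound by iron regulatory proteins. Its log2 intensity was 6.56, 6.76 and 6.66 on mir-22 mimic replicates 1, 2 and 3, against 6.19, 6.24 and 6.28 on control mimic replicates 1, 2 and 3, a rise of 0.42 ± 0.10 (limma adjusted p = 0.043). For NQO1, ISCA1 and EPAS1 alike the groups did not overlap. With 1 array left out in turn the log2 fold changes ran from 0.55 to 0.71 for NQO1, from 0.64 to 0.86 for ISCA1 and from 0.37 to 0.47 for EPAS1. Removing any of the mimic arrays, or control mimic replicate 1 or 2, ended all 3 calls, while with control mimic replicate 3 removed 12 list genes were called, these 3 among them.

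**Figure D3:**
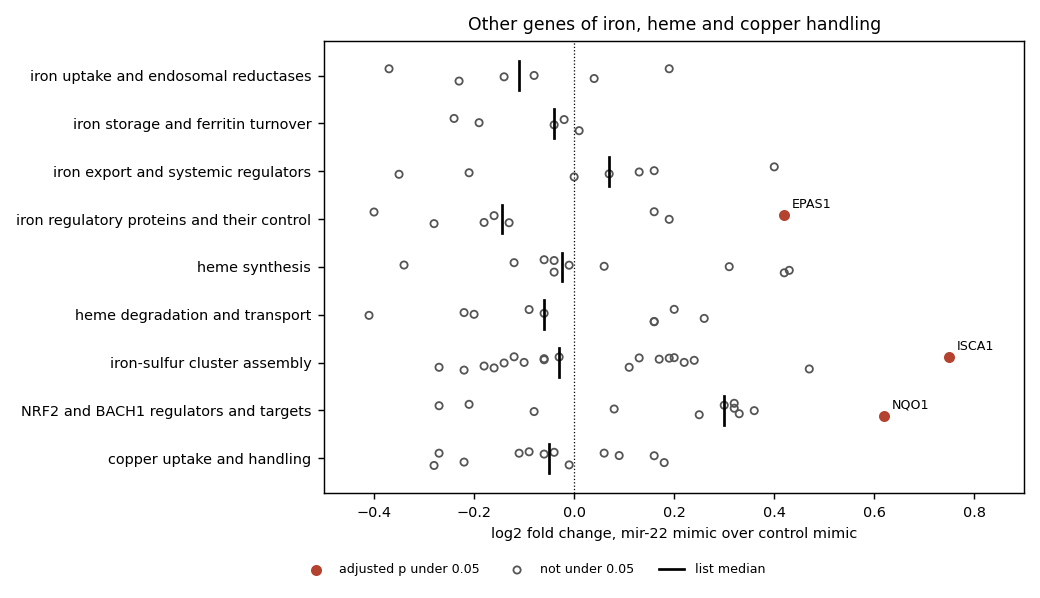
Log2 fold change, mir-22 mimic over control mimic, of the 87 detected genes of 9 lists (points, 1 per gene at its brightest probe; vertical bars are list medians; filled points passed an adjusted p under 0.05). Filled points are EPAS1 (0.42), NQO1 (0.62) and ISCA1 (0.75), and the list medians lie between -0.14 and 0.30.

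The list with the highest median was that of the NRF2 and BACH1 regulators and targets, to which HMOX1 is related as a target. Its median was 0.30 over 11 detected genes, with NQO1 called higher, none lower, and 8 above 0. Relative to the mean of control mimic replicates 1 and 2, the list's median was 0.16, 0.12 and 0.30 on mir-22 mimic replicates 1, 2 and 3, and 0.22 on control mimic replicate 3, which thus lay within the range of the mimic arrays. In iron-sulfur cluster assembly 1 of 19 genes was called, ISCA1, and the median was -0.03.

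Among iron regulatory proteins and their control 1 of 8 was called, EPAS1, and the median was -0.14. ACO1, which like IREB2 encodes an iron regulatory protein, was picked after its values were seen. ACO1 was lower on every mimic array, with a log2 fold change of -0.28 ± 0.10 (limma adjusted p = 0.127). Heme synthesis had 10 detected genes and a median of -0.03, with none called by limma and 4 at an unadjusted p under 0.05. Its largest values were in ABCB6 (0.43 ± 0.11, limma adjusted p = 0.0532) and FECH, the enzyme that inserts iron into heme (0.42 ± 0.14, limma adjusted p = 0.111). ABCB6 was called in 8 of the 16 alternative ways of processing. PPOX, also of this list and picked after its values were seen, was lower (-0.34 ± 0.09, limma adjusted p = 0.0693).

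No gene was called by limma in the other 5 lists. Iron uptake had 6 detected genes, 1 of them at an unadjusted p under 0.05, with its largest values in the transferrin homologue MELTF (-0.37 ± 0.11) and the endosomal channel gene MCOLN1 (-0.23 ± 0.17). Other probes of MELTF gave -0.12 and -0.06. Iron storage and ferritin turnover had 5 detected genes, 0 at an unadjusted p under 0.05, led by the ubiquitin ligase gene HERC2 (-0.24 ± 0.13) and the iron chaperone gene PCBP1 (-0.19 ± 0.11). Iron export and systemic regulation had 7 detected genes, 1 at an unadjusted p under 0.05, led by the receptor gene BMPR2 (0.40 ± 0.31) and the protease gene FURIN (-0.35 ± 0.15). Heme degradation and transport had 9 detected genes, 2 at an unadjusted p under 0.05. By absolute log2 fold change the 9 were led by the heme exporter gene FLVCR1 (-0.41 ± 0.17) and the folate and heme carrier gene SLC46A1 (0.26 ± 0.13). By p, HEBP1 (-0.22 ± 0.10, limma adjusted p = 0.212) came before SLC46A1 (limma adjusted p = 0.297), which was not among the 2. SLC46A1 was near the floor of the scale, at 4.82 to 5.13 with the mir-22 mimic and 4.50 to 4.87 with the control mimic. It was not above background on every array, and with an offset of 50 its value was 0.12. Copper handling had 12 detected genes, 1 at an unadjusted p under 0.05, led by the copper chaperone genes ATOX1 (-0.28 ± 0.13) and CCS (-0.27 ± 0.10). Several of these values moved far with a single array. Without control mimic replicate 3 the log2 fold change was -0.04 for MCOLN1, -0.11 for HERC2, -0.02 for BMPR2, -0.19 for FURIN and -0.14 for ATOX1. It was 0.15 for SLC46A1 and 0.65 for BMPR2 without control mimic replicate 1, and -0.25 for FLVCR1 without control mimic replicate 2. Without mir-22 mimic replicate 3 it was -0.10 for PCBP1 and 0.17 for SLC46A1.

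Detected probes numbered 17465 to 19244 on an array, with control mimic replicate 3 the lowest. That array stood apart: over the kept probes it correlated with the other controls at 0.980 and 0.981, while these correlated at 0.997 with each other. Cell type markers were each read at their brightest probe, and further probes of a marker were not counted. Of the markers of clear cell ovarian carcinoma, NAPSA and PAX8 were not above background on any array, and ARID1A was detected on all arrays. Of 6 epithelial markers 3 were detected on all arrays (KRT7, KRT8 and KRT18) and 3 on none (EPCAM, KRT19 and CDH1), and all 3 mesenchymal markers were detected. Of 4 leukocyte markers PTPRC and CD3E were detected on no array, CD14 on 6 and CD79A on 5. Of 3 endothelial markers VWF was detected on none, and PECAM1 and CDH5 on all 6. Of the 3 erythroid markers with a probe HBB and ALAS2 were detected on none and KLF1 on 5. Mean log2 levels were low for CD14 (5.18), CD79A (4.77), PECAM1 (5.41) and KLF1 (4.79), and higher for CDH5 (9.57). Markers detected on no array stood at 4.19 to 4.47. The part of these genes in the results above was not tested.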

How the data were processed

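Total RNA was hybridised to 1-colour Illumina bead arrays, 6 in all. The deposited files of single arrays give, per the file headers, each probe's mean bead intensity on a linear scale with its spread, its bead number and a detection score. Per the submitters' processing notes BeadStudio was used, its version not given in the sources used here. A second deposited table holds intensity values that the authors had normalised between arrays by a method not given in the sources used here. Its probe names were joined to the array files by dense ranks over the 6 arrays, and all 48803 rows matched 1 to 1. Gene symbols came from the platform annotation (28098 probes with 1 symbol, 13 with several, 20692 unnamed here), and a comparison with RefSeq gene records (GRCh38.p14) altered none. The array annotation names no build.

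Detection p was 1 minus the score. Intensities were processed with neqc in limma 3.58.1 under R 4.3.3 (normal-exponential background, offset of 16, quantile normalisation, log2), which compresses changes of dim probes. The 18732 probes with a detection p under 0.01 on at least 3 arrays were fitted in limma by a linear model with empirical Bayes moderation (two-sided, mir-22 mimic over control mimic, Benjamini-Hochberg threshold 0.05). Of these 1210 (6.46%) passed, 569 higher and 641 lower; with median scaling 628 passed, 459 higher and 169 lower. The ± after a log2 fold change is limma's moderated standard error, with a median of 0.122. A gene was taken at its brightest kept probe. The fit was tested on simulated data. Noise there was independent and of the same size on every array, so an array that stands apart, such as control mimic replicate 3, was not covered. The number of arrays limits the precision. When 1 array was left out the rest were normalised again.

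The genes and lists were chosen with earlier results of these data known. From each list up to 4 called genes with the lowest adjusted p were named, or the 2 with the largest absolute log2 fold change where none was called, and for STEAP2, the STEAP gene with the largest change, the 5 genes with the highest correlation. Replicate numbers are shared between groups in the labels. Deviations from the group means correlated at 0.33, 0.14 and 0.43 for same-numbered arrays and at -0.40 to 0.32 for differently numbered arrays. The same-number values of 0.33 and 0.43 lay above the range of the latter, and 0.14 lay within it. The labels name no pairing. The main fit therefore had no block, and the fit with the replicate number as a block was run as an alternative.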

Additional observations from a re-analysis of the deposited data

How the results depend on the processing

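The 16 alternatives used the arrays on which the genes were picked, and describe the processing only. In them STEAP2 kept its call and direction, and TFRC, SLC11A2, STEAP3 and HMOX1 kept their sign. STEAP1 (0.09) and FTL (0.02) changed sign with median scaling. Member genes called numbered 1, except 3 with array weights (STEAP2, STEAP3 and HMOX1), and 1 to 2 when 1 array was left out, the 2 without control mimic replicate 3. EPAS1 lost its call with median scaling, at a log2 fold change of 0.55, and with a trended, robust variance, at 0.42, as large as or larger than the 0.42 with the main settings. List genes called, 3 of 87, became 5 with no background correction, 5 with an offset of 50, 6 in the authors' value table, 19 with array weights, 5 with probes averaged per gene and 5 with the replicate block. They ranged from 0 to 12 without 1 array, with 12 without control mimic replicate 3, and 0 without any other array, where limma gave 10 to 16 genes an unadjusted p under 0.05. The causes were not tested, and fewer arrays were fitted in the last case. BMPR2, not called, was at 0.40 with all arrays and ran from -0.02 (without control mimic replicate 3) to 0.65 (without control mimic replicate 1). Probes called, 1210, became 628 with median scaling (73.1% of them higher, against 47.0%), 4405 with array weights, 1577 with the replicate block, and 133 to 2639 without 1 array, the highest without control mimic replicate 3 and the lowest without mir-22 mimic replicate 2. The replicate block changed no call of the 7 genes. Probes near background, such as the dimmer STEAP3 probe, have compressed changes, and genes below it give none.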
